A study of Mus musculus with 2 samples.

Results

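The 9 genes described here form a set named mitophagy and autophagy adaptors, called the adaptor genes below. Only some of their products link damaged or surplus cargo, mitochondria above all, to the autophagosome. The genes were chosen by name, with earlier results of these data known. Bnip3, Bnip3l and Fundc1 are receptors in the outer mitochondrial membrane, Pink1 and Park7 belong to the surveillance of mitochondrial damage, and Sqstm1 is a soluble cargo receptor. Map1lc3a, Map1lc3b and Gabarapl1 belong to the Atg8 family that coats the autophagosome membrane. All 9 were found among the 55536 annotated genes of the deposited tables. Total RNA was sequenced from heart tissue of adult male mice of the strain 5xFAD/CAST, aged 8 to 10 months, from The Jackson Laboratory. 5xFAD is a transgenic line whose human amyloid precursor protein and presenilin transgenes are driven by the neuronal Thy1 promoter, and CAST descends from wild mice. The data hold 1 group with 2 libraries, library 1 and library 2, named for their biological replicate numbers. Both carry the same cross and were made from 300 ng of RNA each with a directional kit, reduced ribosomal RNA and ERCC spike-ins. All samples are of this cross, so levels, transcripts and the spread between replicates can be described and no effect of the cross can. Both libraries have a biosample of their own and the same donor identifier, so the spread may be technical.

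In mitophagy, a mitochondrion is enclosed by a membrane and delivered to the lysosome. In one route the kinase PINK1 builds up on a depolarised mitochondrion and sets off the building of ubiquitin chains on its surface, which soluble receptors such as SQSTM1 (p62) then bind. In the other route the receptors BNIP3, BNIP3L (NIX) and FUNDC1 sit in the outer membrane and bind Atg8 proteins directly. Heart muscle is packed with mitochondria and depends on their turnover, and BNIP3 is known as a gene induced by low oxygen.

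Receptors of this kind hold a short Atg8-binding core, a tryptophan, phenylalanine or tyrosine followed at the third place after it by a leucine, isoleucine or valine. The coding bases of that core are shown in capitals with 24 bases on each side, from the GENCODE transcripts Bnip3-201 on chromosome 7, Fundc1-201 on chromosome X and Sqstm1-202 on chromosome 11, because they carry the link between a receptor and the Atg8 genes below.
Bnip3: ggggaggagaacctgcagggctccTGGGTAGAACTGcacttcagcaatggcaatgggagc
Fundc1: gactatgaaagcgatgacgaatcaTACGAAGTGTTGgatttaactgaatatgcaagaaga
Sqstm1: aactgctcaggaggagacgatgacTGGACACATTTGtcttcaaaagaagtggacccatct
The core began at codon 13 of 187 in Bnip3, codon 18 of 155 in Fundc1 and codon 340 of 442 in Sqstm1. It opened with a tryptophan codon in Bnip3 and Sqstm1 and with a tyrosine codon in Fundc1. The same spacing of residues occurred 2 times in Bnip3, 6 times in Fundc1 and 4 times in Sqstm1. The match printed is the first one, except in Sqstm1, where it is the one that follows 3 acidic codons. A match is a description of the letters only. The coding sequences of Bnip3 and Bnip3l shared 63.1% of aligned bases.

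All 9 genes were expressed in both libraries. TPM is the abundance of a transcript scaled for its length and for the library total. A gene counted as detected where its TPM reached 1 in each library, and 21.0% of all annotated genes met this. Of the 22015 nuclear protein-coding genes, the class of these 9, 10754 met it. The values below are TPM from the first of the 2 deposited quantifications, with those of the second given as such, and n is 2 libraries throughout. Together the genes held 999 TPM in library 1 and 1016 TPM in library 2, or 0.308% ± 0.00363 (SD, n = 2) of all TPM from nuclear protein-coding genes. Map1lc3a and Pink1 supplied 25.8% and 25.3% of that sum, and Fundc1 supplied 1.23%. In a bulk tissue, fewer cells of a type and less RNA per cell cannot be told apart, and the levels are those of the tissue.

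**Figure D1:**
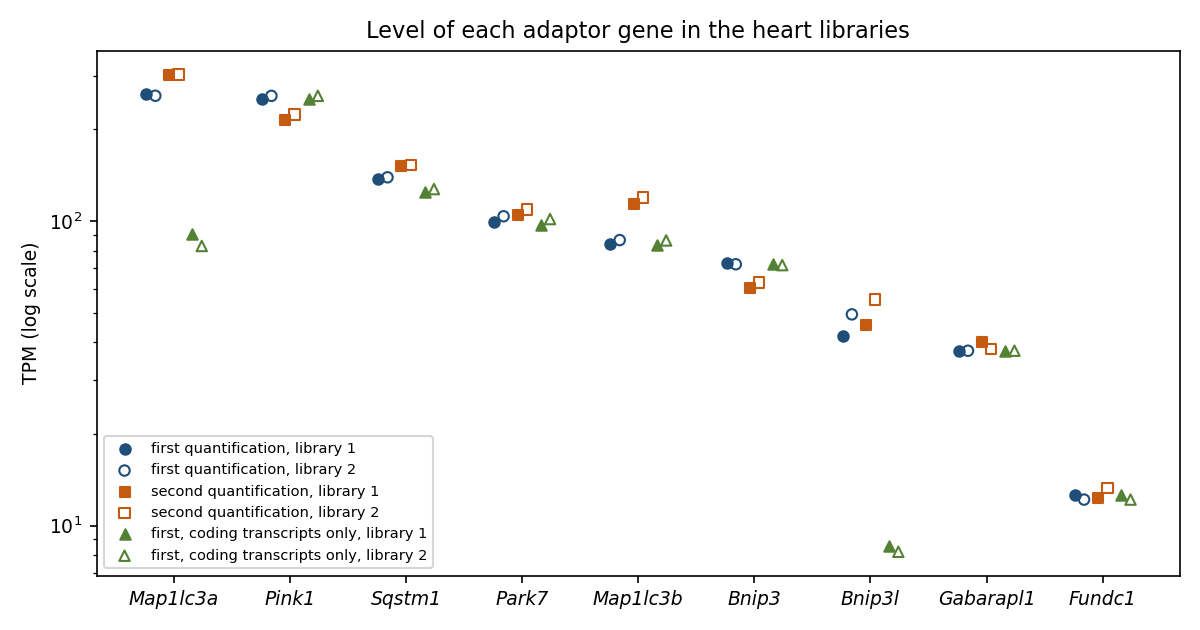
TPM of each of the 9 adaptor genes (log axis) in library 1 (filled) and library 2 (open). Circles are the first quantification, squares the second and triangles the first quantification restricted to transcripts annotated as protein coding; under that restriction Map1lc3a averages 86.6 TPM, against 260 TPM over all its entries, and Bnip3l 8.38 TPM, against 45.7 TPM.

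Among the 3 outer-membrane receptors of the set, Bnip3 was the most abundant. Bnip3 (chr7:138890836-138909519, minus strand of mm10), whose product also promotes cell death, stood at 72.8 TPM in library 1 and 72.1 TPM in library 2, a mean of 72.4 ± 0.460 TPM. Bnip3l (chr14:66985239-67008877, minus strand), the receptor known for clearing mitochondria from maturing red cells, stood at 42.0 TPM in library 1 and 49.4 TPM in library 2, a mean of 45.7 ± 5.22 TPM. Its coefficient of variation of 11.4% was the highest of the 9 genes. Fundc1 (chrX:17556564-17572325, minus strand), a receptor known in hypoxia-linked mitophagy, stood at 12.6 TPM in library 1 and 12.2 TPM in library 2, a mean of 12.4 ± 0.290 TPM, the lowest of the 9. The ratio of Bnip3l to Bnip3 was 0.577 in library 1 and 0.685 in library 2. In the second quantification Bnip3 stood at 60.5 and 62.9 TPM in library 1 and library 2, and Bnip3l at 45.4 and 55.3 TPM. Bnip3 thus exceeded Bnip3l in both libraries of both quantifications.

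Pink1 was among the most abundant transcripts of the pathway. The gene (chr4:138313409-138326307, minus strand), which encodes the kinase described above, stood at 252 TPM in library 1 and 258 TPM in library 2, a mean of 255 ± 4.15 TPM, which placed it at percentile 98.2 of the 10986 nuclear protein-coding genes with a mean TPM of at least 1. The second quantification gave Pink1 215 and 224 TPM in library 1 and library 2. Park7 encodes DJ-1, a redox-responsive protein whose loss, like that of PINK1, is a cause of inherited Parkinson's disease. The gene (chr4:150897133-150914437, minus strand) stood at 99.4 TPM in library 1 and 104 TPM in library 2, a mean of 102 ± 3.05 TPM and percentile 95.7. The second quantification gave Park7 105 and 109 TPM in library 1 and library 2.

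Sqstm1 was the most abundant of the 13 receptor genes listed, which combine soluble and membrane-bound receptors. It (chr11:50199366-50210827, minus strand) stood at 137 TPM in library 1 and 139 TPM in library 2, a mean of 138 ± 1.38 TPM and percentile 96.9. The second quantification gave it 152 and 153 TPM in library 1 and library 2. The next in that list was Phb2, an inner-membrane mitophagy receptor, at 89.3 and 93.0 TPM in library 1 and library 2. Fkbp8, an outer-membrane receptor, averaged 41.4 TPM and Tax1bp1, a soluble ubiquitin-binding receptor, 40.4 TPM.

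Map1lc3a led the Atg8 family. It (chr2:155276297-155278073, plus strand) stood at 262 TPM in library 1 and 258 TPM in library 2, a mean of 260 ± 3.06 TPM and percentile 98.3. Map1lc3b (chr8:121590361-121598760, plus strand), whose lipid-bound product is the usual marker of autophagosomes, stood at 84.0 TPM in library 1 and 86.6 TPM in library 2, a mean of 85.3 ± 1.82 TPM. Gabarapl1 (chr6:129533160-129542346, plus strand) stood at 37.4 TPM in library 1 and 37.5 TPM in library 2, a mean of 37.5 ± 0.0707 TPM. Of the 510 ± 4.19 TPM summed over the 5 family genes, Map1lc3a held 50.9% ± 0.181, Gabarap 17.6% ± 0.264, Map1lc3b 16.7% ± 0.495, Gabarapl2 7.40% ± 0.123 and Gabarapl1 7.34% ± 0.0741. The 2 branches of the family were visible in sequence. The coding bases of Map1lc3a and Map1lc3b were 74.9% identical and those of Gabarapl1 and Gabarap 74.6%, against 53.4% for Map1lc3a and Gabarapl1.

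Ordered by mean TPM, the genes ran Map1lc3a, Pink1, Sqstm1, Park7, Map1lc3b, Bnip3, Bnip3l, Gabarapl1 and Fundc1. In the first quantification the 2 libraries of each gene lay clear of those of the next gene in that order. The gap was narrowest between Map1lc3a and Pink1, whose means differed 1.02-fold. In the second quantification Map1lc3b (114 and 120 TPM in library 1 and library 2) moved above Park7 (105 and 109 TPM), again without overlap of the libraries.

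The high TPM of Map1lc3a rested mostly on entries that are not annotated as coding. Its only coding entry, Map1lc3a-201, held 34.5% of the gene's TPM in library 1 and 32.1% in library 2. The processed transcripts Map1lc3a-203 and Map1lc3a-202 held the rest, with 128 and 119 TPM for the first of them in library 1 and library 2 and 43.7 and 56.3 TPM for the second. The term processed transcript marks a spliced entry without an annotated open reading frame. Map1lc3a-202 has 807 bases, all of them inside exons of the coding entry, and Map1lc3a-203 has 826 bases, of which 757 are inside them. The other 69 bases of Map1lc3a-203 stand at its start. Its first exon, chr2:155276889-155277013 on the plus strand of mm10, is shown with the bases shared with the coding entry in capitals.
Map1lc3a-203: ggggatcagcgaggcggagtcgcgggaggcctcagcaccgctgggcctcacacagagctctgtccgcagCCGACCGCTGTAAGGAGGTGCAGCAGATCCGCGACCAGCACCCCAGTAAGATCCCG
The division between the entries without a reading frame differed between libraries in the second quantification. There Map1lc3a-202 stood at 163 TPM in library 1 and 0.0781 TPM in library 2, whereas Map1lc3a-203 stood at 31.6 TPM in library 1 and 201 TPM in library 2. Their sum was 195 TPM in library 1 and 201 TPM in library 2, and in the first quantification it was 172 and 175 TPM. In the first quantification coding entries held 33.3% ± 1.65 of the gene's TPM, and 34.4% ± 1.13 by the second one. As a share of reads, which is not scaled for length, Map1lc3a-201 held 41.2% ± 1.77 of the gene's expected counts.

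Entries without an annotated reading frame also held most of the TPM of Bnip3l, though not most of its reads. Coding entries held 20.4% of its TPM in library 1 and 16.6% in library 2, but 61.1% and 55.4% of its expected counts. The leading entry was the processed transcript Bnip3l-205 of 789 bases, with 16.3 TPM in library 1 and 19.0 TPM in library 2. It was followed by Bnip3l-207 of 492 bases, with 10.5 and 14.7 TPM in library 1 and library 2, and Bnip3l-204 of 354 bases, with 5.43 and 7.38 TPM. The second quantification put Bnip3l-207 first, at 21.3 and 27.7 TPM in library 1 and library 2, and listed Bnip3l-204 at 0. The coding entries Bnip3l-202 and Bnip3l-201, of 3259 and 3238 bases, stood at 4.81 and 3.75 TPM in library 1 and at 5.96 and 2.24 TPM in library 2. Nearly all of Bnip3l-205, 757 of its bases, lies within exons of the coding entries, and so do 400 bases of Bnip3l-207. The first exons, which fall outside the coding entries, are shown as chr14:66989810-66989841 and chr14:66999814-66999905, both on the minus strand of mm10.
Bnip3l-205: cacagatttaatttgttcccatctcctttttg
Bnip3l-207: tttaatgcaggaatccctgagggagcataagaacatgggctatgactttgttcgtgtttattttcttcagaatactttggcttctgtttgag

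**Figure D2:**
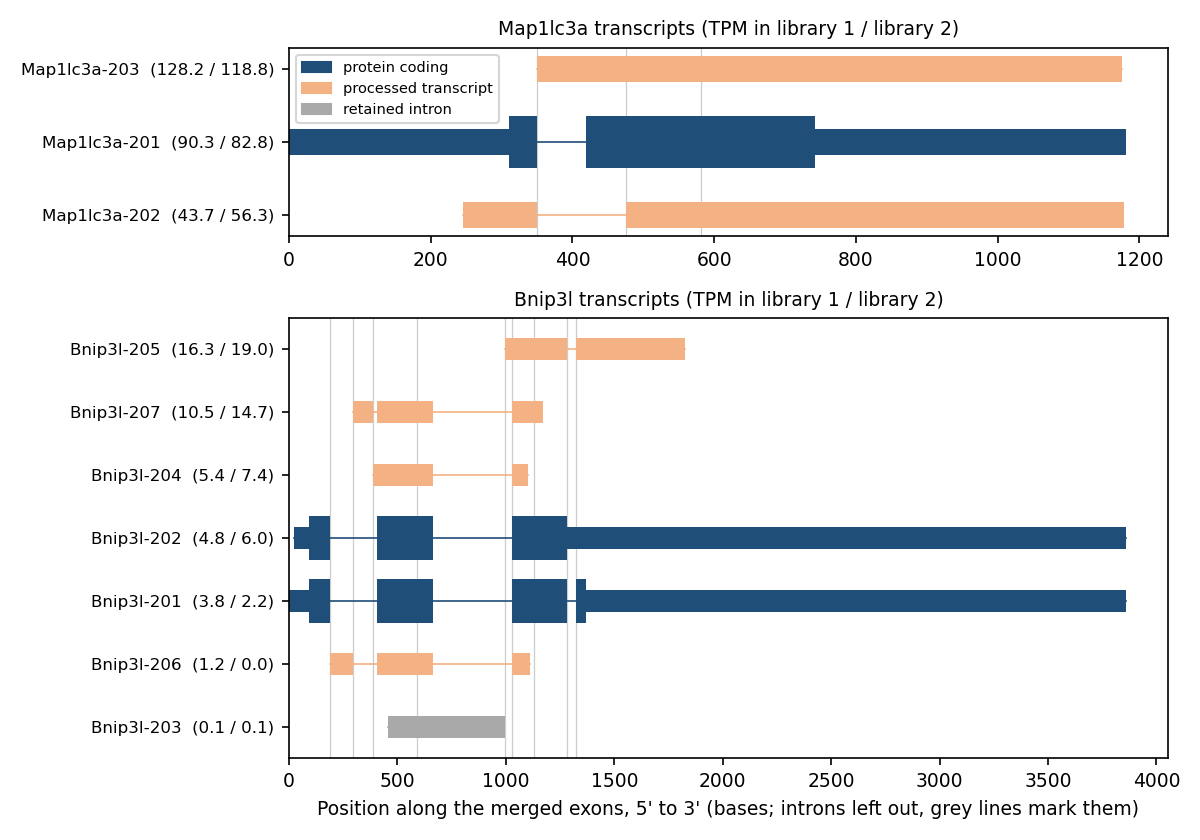
Annotated transcripts of Map1lc3a and Bnip3l along the merged exons of each gene (bases, introns left out; tall boxes are coding sequence), ordered from top to bottom by mean TPM, with the TPM of library 1 and library 2 beside each name. The top entry of both genes, Map1lc3a-203 at 128 and 119 TPM and Bnip3l-205 at 16.3 and 19.0 TPM, is a processed transcript, not the coding one.

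Restricting each gene to its coding entries changed the order of levels. Pink1 then led, followed by Sqstm1, Park7, Map1lc3a, Map1lc3b, Bnip3, Gabarapl1, Fundc1 and Bnip3l, so that 7 of 9 genes changed place. Map1lc3a and Map1lc3b stood at 90.3 and 83.5 TPM in library 1 and at 82.8 and 86.4 TPM in library 2, so the higher of the pair differed between the libraries. Of the coding TPM of Map1lc3b, Map1lc3b-203 held 44.1 and 43.7 TPM in library 1 and library 2. Its annotated reading frame starts further downstream than that of Map1lc3b-201 and is shorter. Map1lc3b-201 alone stood at 39.0 and 39.5 TPM in library 1 and library 2, below Map1lc3a-201 in both. Bnip3l was at 8.56 and 8.20 TPM in library 1 and library 2, below Fundc1 at 12.6 and 12.2 TPM. Map1lc3a then held 28.5% of the family's TPM, beside 28.0% for Map1lc3b and 26.0% for Gabarap.

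The other 7 genes were led by a coding entry in all 4 transcript tables. Fundc1, Pink1 and Gabarapl1 had all of their TPM in coding entries, though some of these entries have a shorter reading frame than the leading one. Pink1-201 held 75.3% of Pink1 in both libraries, and the shorter Pink1-202 held 24.7%. The annotated reading frame of Pink1-202 covers only the last part of that of Pink1-201. In the second quantification Pink1-202 stood at only 9.23 and 11.8 TPM in library 1 and library 2, against 62.2 and 63.6 TPM in the first. Gabarapl1-201 held 99.3% of its gene in library 1 and 98.2% in library 2. The second quantification gave it 84.9% and 91.0% in library 1 and library 2. There Gabarapl1-204, listed at 0 in the first quantification, held 14.8% and 8.54%. Fundc1-201 held 62.5% and 63.4% in library 1 and library 2. Fundc1-205 held 25.4% and 22.4%, and Fundc1-204 held 12.1% and 14.2%. The second quantification gave Fundc1-205 43.7% and 30.1% in library 1 and library 2. It listed Fundc1-204 at 0 in library 1 and gave it 3.41% in library 2, whereas Fundc1-203, listed at 0 in the first quantification, held 5.13% and 19.0%. Fundc1-205 and Fundc1-203 are the entries whose reading frames lack the core printed above. Bnip3-201 held 82.0% in library 1 and 78.6% in library 2, with Bnip3-203 at 17.7% and 20.7%.

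The TPM of Map1lc3b lay mostly in Map1lc3b-203 (775 bases), at 52.5% and 50.4% in library 1 and library 2, and Map1lc3b-201 (2532 bases), at 46.4% and 45.7%. The second quantification gave Map1lc3b-203 59.6% and 59.8% in library 1 and library 2 and Map1lc3b-201 32.2% and 31.8%. In reads, the longer entry led with 3143 expected counts in library 1 and 2999 in library 2, beside 987 and 919 for the shorter one. Sqstm1-202 held 84.5% and 85.5% of Sqstm1 in library 1 and library 2. A retained-intron entry, Sqstm1-206, stood at 9.71 and 5.78 TPM in library 1 and library 2, and at 31.5 and 24.8 TPM in the second quantification, which lowered the coding share of Sqstm1 to 79.3% ± 1.79 there, beside 91.2% ± 0.389 in the first. Park7-201 held 96.9% of Park7 in library 1 and 90.9% in library 2. In the second quantification Park7-201 stood at 54.6 and 87.9 TPM in library 1 and library 2, and the similar entry Park7-204 at 47.0 and 16.9 TPM. Coding entries as a whole held 98.1% ± 0.0579 of Park7 there.

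**Figure D3:**
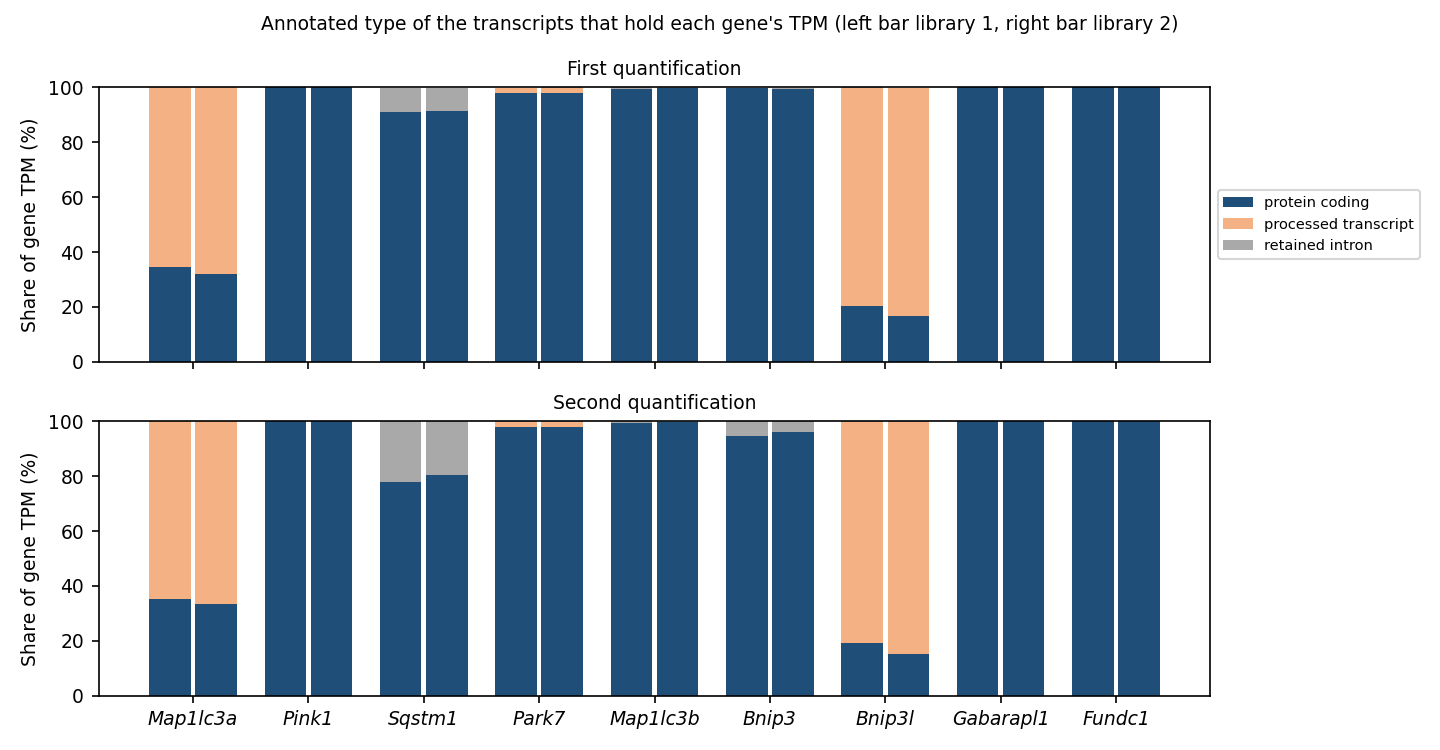
Share of each gene's summed transcript TPM (percent) held by entries annotated as protein coding, processed transcript or retained intron, with library 1 as the left bar and library 2 as the right bar of each pair, for both quantifications. Map1lc3a and Bnip3l are mostly processed transcript in all bars, at coding shares of 33.3% and 18.5% in the first quantification.

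Several of the genes share sequence with other entries of the annotation. Of the stretches of 50 bases in the transcripts of Bnip3, 16.5% also occurred in transcripts of other genes, as did 20.8% for Bnip3l, 5.77% for Map1lc3b, 3.03% for Pink1 and 0.429% for Park7. For the other 4 genes none did, and those of Pink1 lie in 2 miRNA entries inside the gene that were listed at 0. The pseudogene Gm16439 shares 13.5% of the stretches of Bnip3 and stood at 16.4 and 14.8 TPM in library 1 and library 2, and its expected counts were 6.63% and 6.23% of those of the pair. The pseudogene Gm6055 shares 3.67% of the stretches of Map1lc3b and stood at 24.0 and 23.0 TPM in library 1 and library 2 of the first quantification, but was listed at 0 in the second. The sum of Map1lc3b and Gm6055 was 108 and 110 TPM in the first quantification, beside 114 and 120 TPM in the second, for library 1 and library 2. Bnip3l-ps shares 20.8% of the stretches of Bnip3l and held 27.5 expected counts in library 1 and 11.3 in library 2. The levels of Bnip3, Bnip3l and Map1lc3b carry this uncertainty. The estimator's own standard deviation of the count was 26.6 and 27.9 reads for Map1lc3b in library 1 and library 2, 14.8 and 12.3 for Bnip3, and 9.80 and 7.75 for Bnip3l.

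Of genes that overlap these on the genome, Zcchc14, on the strand opposite to Map1lc3b, stood at 8.31 and 7.87 TPM in library 1 and library 2. Gm20388, on the strand of Map1lc3b, was listed at 0 in the first quantification and at 5.63 and 4.61 TPM in library 1 and library 2 of the second. Mrnip, opposite to Sqstm1, stood at 1.08 and 1.39 TPM. The pseudogene Gm18258, which overlaps Bnip3, was listed at 0 in both quantifications.

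The adaptor genes differed little between the replicates. Expected counts are reads per gene with shared reads divided by an estimator, and their ratio, library 1 over library 2 and scaled by the total over annotated genes, ran from 0.935 for Bnip3l to 1.03 for Fundc1. Pink1 had 17114 expected counts in library 1 and 16477 in library 2, a ratio of 0.967 with a 95% exact (Clopper-Pearson) interval of 0.946 to 0.988. It was the 1 gene of 9 whose interval lay away from 1, and 21.1% of the 16092 genes with at least 10 counts in a library did so. The intervals cover counting error only, and Pink1 has the most counts of the 9. On the scale of log2(TPM + 1), 0 of 9 genes passed a 1.2-fold difference, beside 15.4% of the 12032 genes with a mean TPM of at least 1. In the second quantification 1 gene, Bnip3l, passed it. The median absolute log2 ratio was 0.03 for the 9 genes, 0.10 for those 12032 genes and 0.07 for nuclear protein-coding genes with a mean of 10 TPM or more. TPM was higher in library 1 for Map1lc3a, Bnip3 and Fundc1 and lower in library 1 for the other 6. In the second quantification these 3 were lower in library 1 and Gabarapl1 was higher, so the sign of these small ratios rests on the quantification for 4 of the 9 genes.

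For Bnip3l the TPM and the counts gave different ratios. Expected counts were 1461 in library 1 and 1455 in library 2, a ratio of 0.935 with an interval of 0.869 to 1.01. The TPM ratio was 0.851, a difference of -0.23 on the log2 scale. The gene's estimated mean length, by which TPM is scaled, was 1150 bases in library 1 and 1044 bases in library 2, a length 9.15% lower in library 2. Library 1, with the greater length, had less of the short Bnip3l-207 and more of the long Bnip3l-201 than library 2, but less of the other long entry, Bnip3l-202, as given above. In the coding entries alone the direction was the opposite, with 8.56 TPM in library 1 and 8.20 TPM in library 2. For the other 8 genes the length differed by at most 2.29%, the value for Bnip3.

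**Figure D4:**
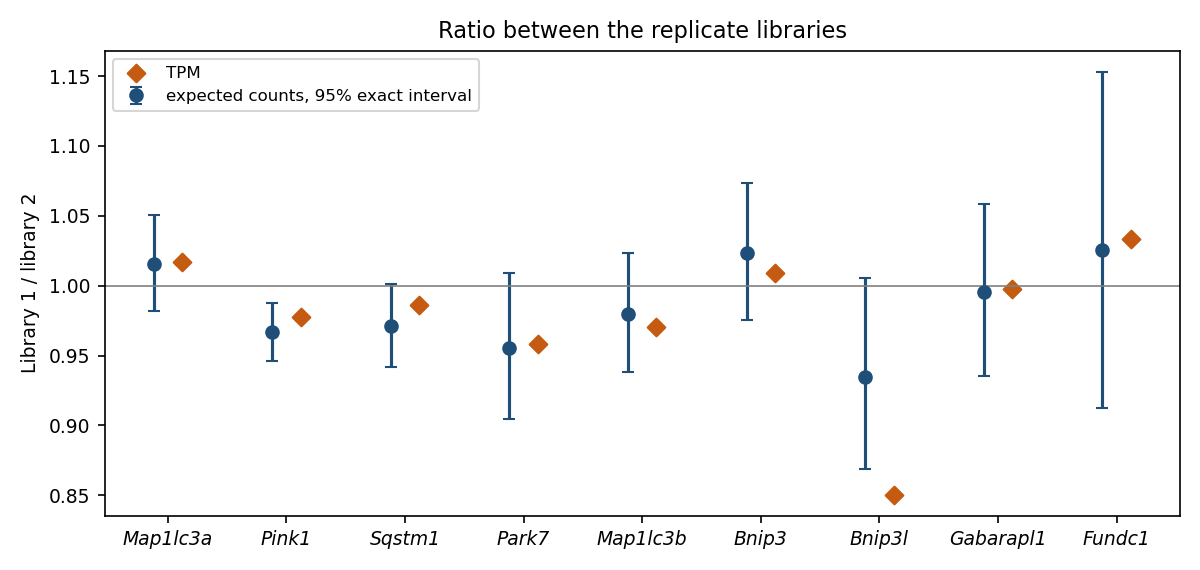
Ratio of library 1 to library 2 for each gene, as scaled expected counts with 95% exact intervals (circles) and as TPM (diamonds). The count intervals reach 1 for all genes but Pink1 (0.946 to 0.988), and the TPM ratio of Bnip3l, 0.851, lies below its count interval.

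Depth was 39819960 expected counts for library 1 and 37060119 for library 2, and 42977135 and 38957328 by the second quantification. All 8 cardiomyocyte markers were detected, with a summed 29082 and 28824 TPM in library 1 and library 2. Markers of other tissue differed between the libraries. The 6 atrial markers summed to 1184 TPM in library 1 and 1578 TPM in library 2, and all 6 were lower in library 1 past 1.2-fold. The 6 adipocyte markers summed to 10.6 TPM in library 1 and 39.4 TPM in library 2, again all 6 lower in library 1 past 1.2-fold. Of 5 neuronal markers, 2 were detected, and the sum was 4.87 and 5.90 TPM in library 1 and library 2. Endothelial, fibroblast, macrophage and erythroid markers summed to 527, 421, 45.5 and 1180 TPM in library 1 and to 528, 394, 47.5 and 1148 TPM in library 2. The endothelial sum was carried by Fabp4, at 253 TPM in library 1 and 272 TPM in library 2. The other 5 endothelial markers were each higher in library 1, and the median log2 ratio of all 6 was 0.11. Skeletal muscle markers summed to 215 and 194 TPM in library 1 and library 2, of which Acta1, also expressed in heart, held 205.9 and 183.3 TPM. The other 5 skeletal muscle markers were each lower in library 1, with at most 2.98 TPM there. The atrial and adipocyte lists thus moved in the direction of Pink1 and Bnip3l between the libraries, and their part in those differences was not tested.

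The 73 other genes of the pathway lists were all detected, with a median level of 20.6 TPM, beside 85.3 TPM for the 9 adaptor genes and 7.34 TPM for nuclear protein-coding genes with a mean TPM of at least 1. Of the 73, 48 were higher in library 1, beside 6157 of the 12032 genes with a mean TPM of at least 1. A 1.2-fold difference was passed by 3 of the 73, beside 15.4% of all genes tested, and 13 had a count interval away from 1, beside 21.1%. The median log2 ratio was 0.02, beside 0.01 for all genes tested. The 3 that passed 1.2-fold, Tbk1, Atg7 and Tfe3, stood at 4.91, 4.63 and 3.98 TPM on average and were singled out after their values were seen. Tbk1 was higher in library 1 (5.48 against 4.33 TPM) but lower there in the second quantification (5.38 against 5.74 TPM). In the list of the PINK1 pathway Vdac1, a channel of the outer membrane, was the highest, with 370 TPM in library 1 and 372 TPM in library 2. The mitofusins Mfn2 and Mfn1, which fuse outer membranes, stood at 224 and 142 TPM in library 1 and at 232 and 141 TPM in library 2. Mfn2 was below Pink1 in the first quantification, but in the second its 218 TPM in library 1 exceeded the 215 TPM of Pink1 there, with 223 TPM for Mfn2 and 224 TPM for Pink1 in library 2. Usp30, a deubiquitinase of the outer membrane, was the lowest of the 15 genes of that list at 3.69 TPM.

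The core machinery that builds the autophagosome was expressed at lower levels, with a median of 8.90 TPM over 24 genes and a range of 1.68 to 42.2 TPM. Its highest gene was Wipi1, which binds the lipid of the forming membrane, at 44.9 and 39.4 TPM in library 1 and library 2. Becn1, a subunit of the kinase complex that makes this lipid, stood at 36.9 and 36.8 TPM in library 1 and library 2. Atg4d, a protease of the Atg8 proteins, averaged 32.2 TPM. By mean TPM, Gabarapl1 at 37.5 TPM and Fundc1 at 12.4 TPM lay within that range and the other 7 adaptor genes above it. Bnip3l was the closest of these, with 42.0 TPM in library 1, below the 44.9 TPM of Wipi1 there, and 8.38 TPM on average in coding entries alone. Lysosomal genes included some of the highest values. Ctsd and Ctsb, both cathepsin proteases, stood at 330 and 150 TPM in library 1 and at 328 and 155 TPM in library 2. Lamp1, a lysosomal membrane protein, stood at 134 and 131 TPM in library 1 and library 2. Among 14 partners of hypoxia signalling and of FUNDC1, Pgk1, a glycolytic target of hypoxia-inducible factors, led at 138 and 153 TPM in library 1 and library 2. Egln1, an oxygen-sensing prolyl hydroxylase, averaged 104 TPM and Epas1, the factor HIF-2 alpha, 89.3 TPM.

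**Figure D5:**
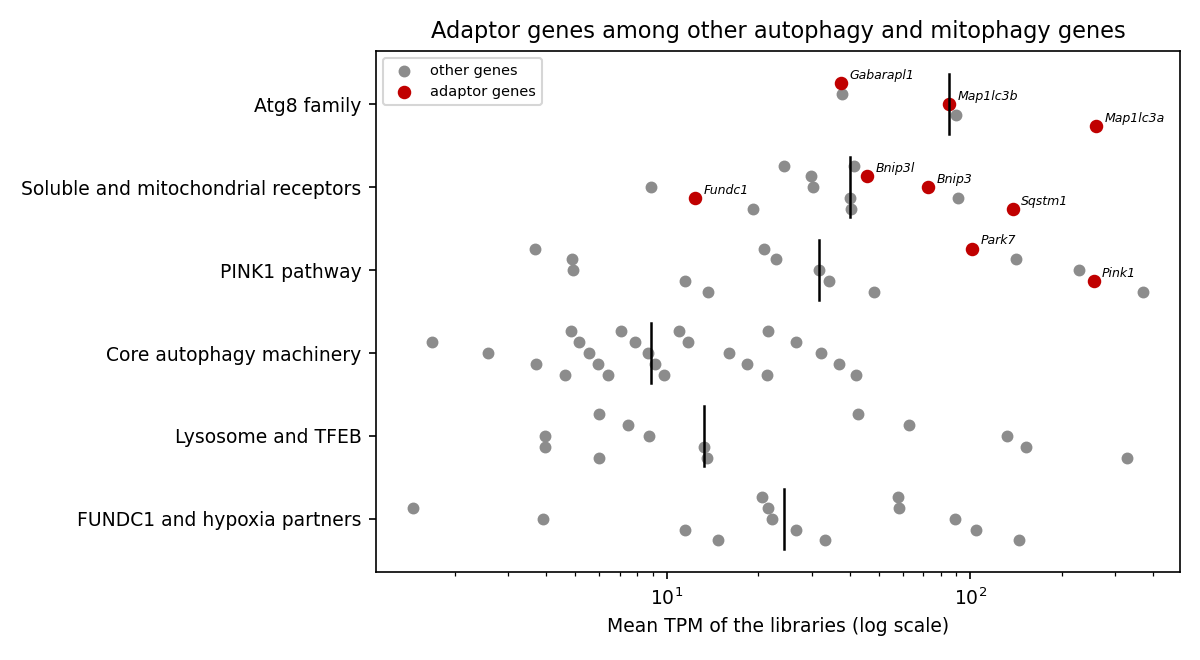
Mean TPM over the libraries (log axis) of each gene in 6 pathway lists; red points are the adaptor genes, grey points the other genes, and black bars the list medians. Pink1 and Park7 lie above the median of their list, 31.7 TPM, whereas Fundc1, at 12.4 TPM, lies below that of the receptors, 40.3 TPM.

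The RefSeq promoter table of GRCm38.p6, the assembly called mm10, held a window from 250 bases before to 50 after the start for 7 of the 9 genes, leaving out Bnip3l and Map1lc3a. The letters ACGTG, the core of the hypoxia response element, were searched on both strands and occurred in 1 of the 7 windows, that of Bnip3, and in 19.6% of 32851 windows of that length. The letters CACGTG, which contain ACGTG and form the E-box bound by TFEB-type factors, also occurred in the window of Bnip3 alone of the 7 and in 7.15% of all windows. These matches describe letters in a window and not binding.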

How the data were processed

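Per the deposited readme, values refer to mm10 with the GENCODE M21 annotation. Names and versions of the aligner and of the estimators were not given in the sources used here. The first quantification is in the column layout of RSEM and the second in that of kallisto, and the second was summed per gene. Per the file headers, the deposited tables hold expected counts, with reads shared between entries divided by an estimator, and their posterior standard deviation. The authors scaled TPM to effective length and to a fixed total that includes the spike-ins. FPKM, also deposited, served as an alternative only. The deposited transcript tables also give the percent of a gene's abundance per transcript, and shares here were recomputed from TPM. Splitting of shared reads and estimated lengths can both move a gene's TPM. The bases printed, the shared stretches and the promoter letters are those of the reference and were not read from these mice. Sequence differences between this cross and the reference were not examined, and their part in the levels and transcript shares was not tested.

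The members and the gene lists were chosen with earlier results of these data known. With 1 group of 2 libraries there was no contrast between conditions and no p-value. Log2 ratios used TPM + 1, library 1 over library 2. Count ratios used rounded expected counts with exact conditional binomial (Clopper-Pearson) 95% intervals scaled by the total over annotated genes. The intervals were tested on simulated counts with sampling noise only, the noise they assume. That test says nothing of further spread between libraries. Other scalings came from edgeR 4.0.16 (TMM) and DESeq2 1.42.0 (size factors). A count of 0 would allow up to 3 counts. Numbered entries, spike-ins and phiX, with 0.381% and 0.361% of counts in library 1 and library 2, were left out. The chi-square statistic divided by its degrees of freedom was 5.64 (16092 genes), which showed that the libraries differ by more than sampling noise. Named genes were the 9 members and the 3 highest other genes of each pathway list. The rule also named transcripts that lead a gene or hold 10% of it, and pseudogenes that overlap or are named after a member. Gm16439, Gm14506, Gm6532, Gm6055, Gm20388, Zcchc14, Mrnip, Usp30, Sqstm1-206 and Park7-204 were chosen after their values were seen. The rule also covers items left unreported. The planned comparison of RefSeq proteins was replaced by one of GENCODE coding bases of the coding transcript with the most counts, aligned with Biopython 1.88. The scripts ran under R 4.3.3 and Python 3.11.15 with pandas 2.3.3, numpy 2.4.6, matplotlib 3.10.9 and scipy 1.17.1.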

Additional observations from a re-analysis of the deposited data

How the results depend on the processing

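Detection of 9 of 9 genes held in all alternatives run. The direction of Pink1, the 1 gene of the 9 called in the first quantification, did not reverse. The uncalled TPM ratios between libraries of Bnip3, Fundc1, Map1lc3a and Gabarapl1 changed sign in the second quantification, on the log2 scale by at most 0.14, for Fundc1. Bnip3l in coding transcripts only was higher in library 1 (8.56 TPM) than in library 2 (8.20 TPM), against the direction of its gene TPM. The share of the 9 genes in nuclear protein-coding TPM, 0.308%, became 0.278% with coding transcripts only, 0.178% of all TPM outside the mitochondrial chromosome and 0.223% as a share of expected counts. The ratio of Bnip3l to Bnip3, 0.631, became 0.815 in the second quantification and 0.116 with coding transcripts only. The ratio of Map1lc3a to Map1lc3b, 3.05, became 2.58 and 1.02, and the Gabarapl1 share of the Atg8 family, 7.34%, became 6.79% and 12.3%, in that order of settings. Coding transcripts only drop the processed transcripts by construction and keep coding entries with a shorter reading frame, such as Map1lc3b-203. For the second quantification the cause was not tested. There, 1 gene, Bnip3l, passed 1.2-fold, where 18.2% of genes did, and 2 genes, Pink1 and Sqstm1, had a count interval away from 1, where 21.2% did. TMM, DESeq2 size factors and the total over nuclear protein-coding genes left Pink1 as the 1 such gene. The levels of 8 of 9 genes moved by more than 1 SD in the second quantification and those of 3 with coding transcripts only, against an SD of 2 libraries. With 2 libraries, leaving out 1 returns the value of the other and says nothing of stability: the ratio of Bnip3l to Bnip3 ran from 0.577 to 0.685, that of Map1lc3a to Map1lc3b from 2.98 to 3.12, and the share of the 9 genes from 0.305% to 0.311%. No paired analysis was possible because the samples form 1 group. The fewest counts of the 9 genes were those of Fundc1, 607 and 551 in library 1 and library 2, and its count interval was the widest.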
